A study of Danio rerio with 24 samples.

Results

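The genes of matrix remodelling considered here were *mmp2*, *mmp14a*, *mmp14b*, *timp2a*, *timp2b*, *col1a1a*, *col1a2*, *col2a1a*, *fn1a* and *sparc*, measured in the eyes of zebrafish larvae. Their probes were chosen by RefSeq accession, and *mmp2* was selected on its rise in MBZ eyes in these same data. Of the 10 genes, 9 had a probe, among 10536 named genes with a probe, and the 9 genes had 13 of the 43603 probes of the array. No probe was matched to *col2a1a*. All 13 probes passed the filter on low values, as did 31506 probes in all, and each of the 13 was well above background on each of the 24 arrays.

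Zebrafish of the AB line were placed in 0.3 μM mebendazole (MBZ) or 0.3 μM BBC at 48 h post-fertilization (hpf), and their eyes were taken after 12 h (60 hpf), 24 h (72 hpf) or 36 h (84 hpf). MBZ is an anthelmintic benzimidazole that binds tubulin. BBC differs from it by a butyl ester on the benzoyl ring, did not malform the retina in the study, and was the control at each time. Each of the 6 conditions had 4 samples of pooled eyes, hybridized to 4 arrays of 1 colour. The labels do not say whether the 4 samples came from separate clutches, so the tests measure the spread between these samples, which may be technical.

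Matrix metalloproteinase 2, encoded by *mmp2*, is a secreted gelatinase that cleaves denatured collagen and basement membrane proteins, and it is made as an inactive proenzyme. In mammals the membrane-bound protease MMP14 activates it at the cell surface. The inhibitor TIMP2 bridges the proenzyme to MMP14, and in excess it blocks both enzymes. The zebrafish has a pair of genes for MMP14 and a pair for TIMP2. Collagen I (*col1a1a*, *col1a2*) and fibronectin (*fn1a*) are fibrous proteins of the matrix, and *sparc* encodes a secreted protein that binds collagen. In the eye such matrix lies in the cornea, the sclera and the periocular mesenchyme.

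A level here is a log2 ratio of the background-corrected signal of a probe to the upper quartile (75th percentile) of the signals on the same array, so that 0 is that quartile. Apart from the choice of the brightest probe of a gene, levels of different probes are set beside each other only for cell type markers. There they do not rank genes by amount of RNA. The share of probes well above background was 66.5% to 76.7%, and the upper quartile of the signal lay between 437 and 705 at 24 h and between 880 and 1433 at the other times. Each of the 6 slides held 2 MBZ and 2 BBC samples of a single exposure time. Exposure time, age and scan day ran together and cannot be told apart, nor can compound and position on the slide. All 8 lens markers and all 15 markers of the neural retina and pigment epithelium were well above background on all arrays. Of the 6 endothelial markers, *kdrl*, *kdr* and *cdh5* had low median levels of -5.56, -5.11 and -5.46, and *fli1*, *clec14a* and *tek* had median levels of 1.58, 1.51 and 0.11. In whole eyes, fewer cells of a type and less RNA per cell cannot be told apart.

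The level of *mmp2* was higher in MBZ eyes than in BBC eyes at every exposure time, by 0.41 ± 0.14, 0.56 ± 0.14 and 0.29 ± 0.14 on the log2 scale at 12, 24 and 36 h (± SE, n = 4 each). These differences correspond to 1.33-fold, 1.48-fold and 1.22-fold. They are descriptions and carry no test, because *mmp2* was selected on this contrast.

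At 12 h the *mmp2* level was 3.15, 3.21, 3.38 and 3.28 in MBZ eyes and 2.46, 2.84, 2.96 and 3.13 in BBC eyes, listed by replicate number. All 4 MBZ samples lay above all BBC samples, and BBC replicate 1 was the lowest. Without that sample the difference was 0.28. At 24 h the level was 4.40, 4.01, 4.08 and 3.87 in MBZ eyes, against 3.41, 3.49, 3.61 and 3.61 in BBC eyes. The groups did not overlap here either, and the gap between the lowest MBZ and the highest BBC sample was wider than at 12 h. At 36 h the level was 3.23, 3.66, 3.85 and 3.65 in MBZ eyes and 3.22, 3.17, 3.55 and 3.30 in BBC eyes. The groups overlapped, since MBZ replicate 1 lay among the BBC samples, and without it the difference was 0.41. Of all probes tested, 4.15%, 3% and 5.88% had groups that did not overlap at 12, 24 and 36 h.

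The 2 slides of each exposure time were also read apart. Within slides the difference in *mmp2* was 0.53 and 0.29 (12 h), 0.76 and 0.36 (24 h), and 0.25 and 0.32 (36 h), so it was positive on 6 of 6 slides. It was positive in 12 of 12 pairs of an MBZ and a BBC sample with the same replicate number. Only at 24 h was each MBZ sample most like the BBC sample of its number over the tested probes. Samples of the same number shared a slide at consecutive positions, so likeness by number cannot be told apart from slide and position. For *mmp14a* and the brightest *sparc* probe the difference was also positive on 6 of 6 slides, at most 0.06 and 0.18. The lowest slide value of *mmp14a* was 2.8e-05. By replicate number *mmp14a* was positive in 6 of 12 pairs and *sparc* in 9 of 12. The share of all probes with a positive difference on every slide was not counted. Both *mmp2* counts are descriptions, because *mmp2* was selected on this contrast. The *mmp2* effect at 36 h minus that at 12 h was -0.12 ± 0.20 (SE). By quantile normalization the differences at 12, 24 and 36 h were 0.42, 0.55 and 0.29, and by the authors' normalized values 0.41, 0.53 and 0.28. By normexp, another background correction, they were 0.40, 0.91 and 0.22, and without replicate 3 of both compounds at 24 h the 0.91 was 0.75.

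**Figure D1:**
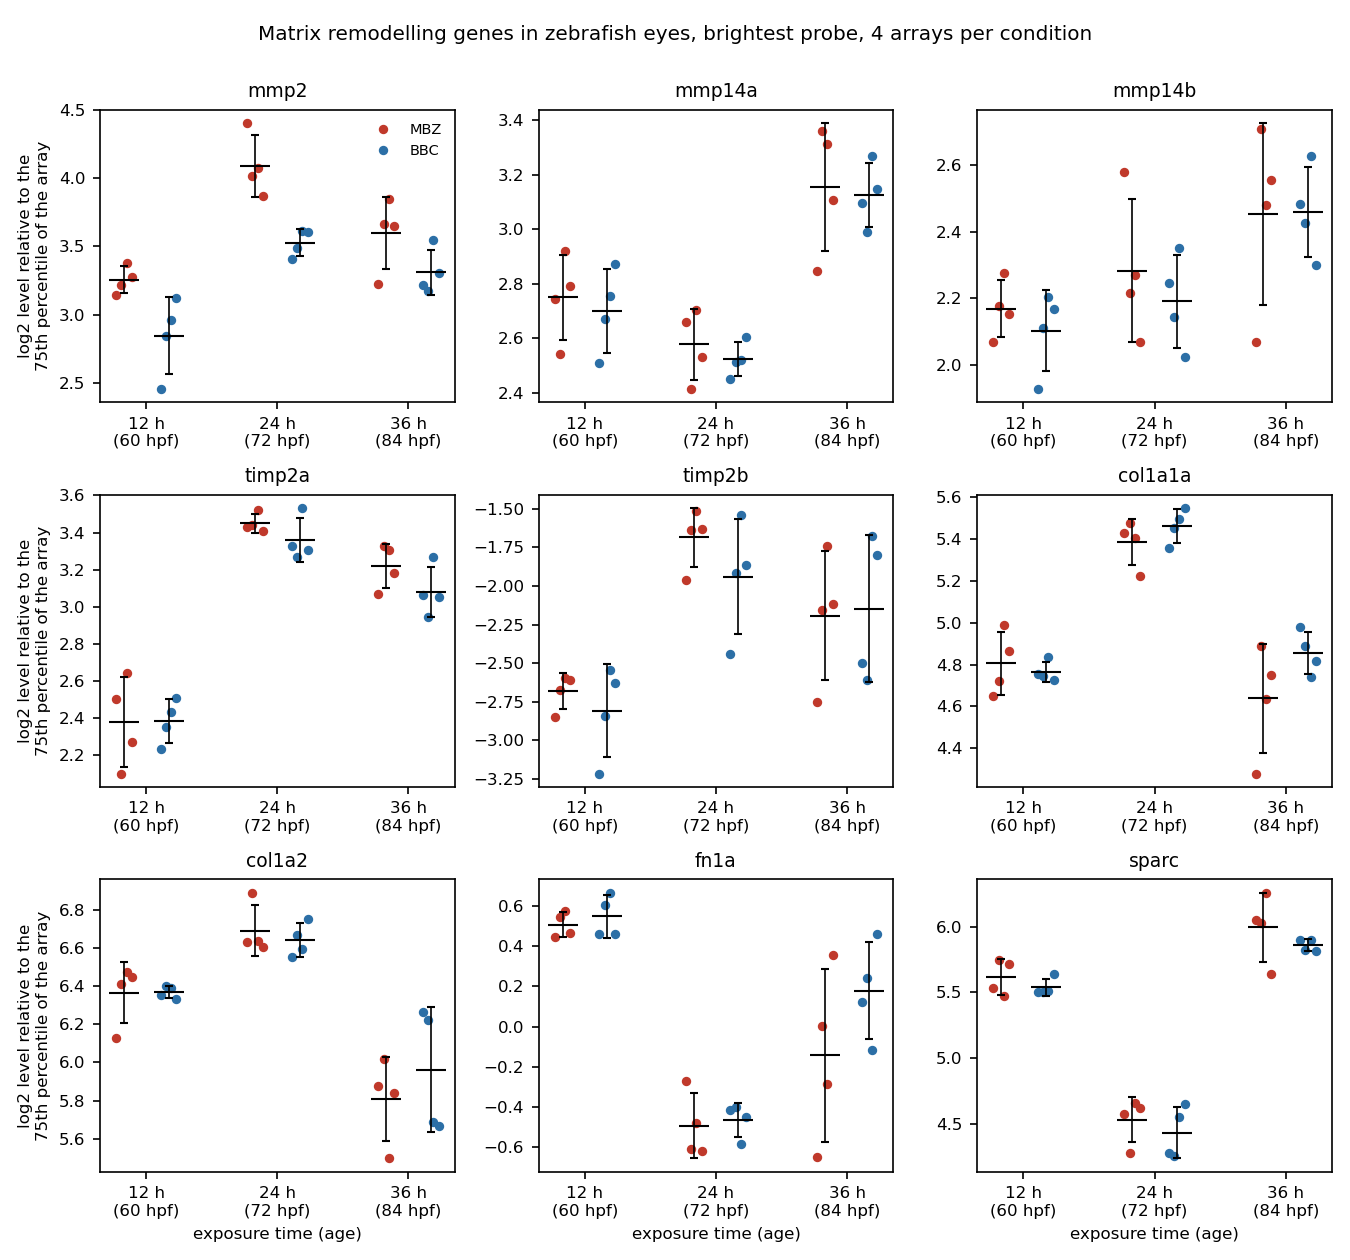
Log2 level of the brightest probe of each of the 9 measured genes (vertical axis, set against the upper quartile of the array) by exposure time, with MBZ eyes in red to the left of BBC eyes in blue. Points are arrays, and the bars are the mean ± SD of 4. For *mmp2* the MBZ samples sit between 3.87 and 4.40 at 24 h, above all BBC samples, while for the other genes the groups overlap at each time.

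The other 8 measured genes were tested with limma in 1 fit over all probes, and a probe was called at a Benjamini-Hochberg adjusted p under 0.20, the threshold of the study. None of the 8 was called at 12, 24 or 36 h, by any of their 12 probes, where 0.321%, 0.321% and 5.62% of all probes were called. At an unadjusted p under 0.05 there were 0, 0 and 2 of the 8 genes, the 2 being *fn1a* and *col1a1a*. The median log2 difference over the 8 genes was 0.04, 0.07 and -0.03 at 12, 24 and 36 h, beside medians over all probes of 0.01, -0.01 and -0.01. The MBZ effect at 36 h was also tested against that at 12 h by limma. None of the 8 genes was called there, with 0.362% of all probes called, and no probe of theirs passed an unadjusted p under 0.05 (lowest adjusted p = 0.657).

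The genes of the membrane proteases that activate the proenzyme were not called at any time. For *mmp14a* the level at 24 h was 2.66, 2.41, 2.71 and 2.53 in MBZ eyes and 2.45, 2.51, 2.52 and 2.61 in BBC eyes. Samples of both compounds were mixed along this range. The log2 difference of *mmp14a* was 0.05, 0.05 and 0.03 at 12, 24 and 36 h, and its 95% confidence interval at 24 h ran between -0.17 and 0.28. At 24 h the *mmp14b* level was 2.58, 2.22, 2.27 and 2.07 in MBZ eyes, against 2.25, 2.14, 2.35 and 2.02 in BBC eyes. A single MBZ sample lay above the BBC range. The log2 difference of *mmp14b* was 0.07, 0.09 and -0.01 at the 3 times, with an interval between -0.17 and 0.35 at 24 h.

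The inhibitor genes were not called either. At 24 h the *timp2a* level was 3.43, 3.44, 3.52 and 3.41 in MBZ eyes and 3.33, 3.27, 3.53 and 3.31 in BBC eyes. All MBZ samples exceeded 3 of the BBC samples and lay below the remaining one, replicate 3. The difference was 0.09, with an interval between -0.13 and 0.31. The *timp2a* level at 36 h was 3.07, 3.33, 3.30 and 3.18 in MBZ eyes and 3.06, 2.94, 3.27 and 3.05 in BBC eyes. Here 2 MBZ samples exceeded every BBC sample, and the difference was 0.14 with an interval between -0.08 and 0.36 (adjusted p = 0.613 by limma). The *timp2b* level at 24 h was -1.96, -1.64, -1.51 and -1.63 in MBZ eyes, against -2.44, -1.92, -1.54 and -1.86 in BBC eyes. Replicate 1 was the lowest sample of both compounds. The difference was 0.26, and its interval of -0.22 to 0.73 was the widest among the 8 tested genes at that time. At 36 h *timp2b* ranged between -2.75 and -1.74 in MBZ eyes and between -2.61 and -1.68 in BBC eyes, and the difference was -0.05.

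**Figure D2:**
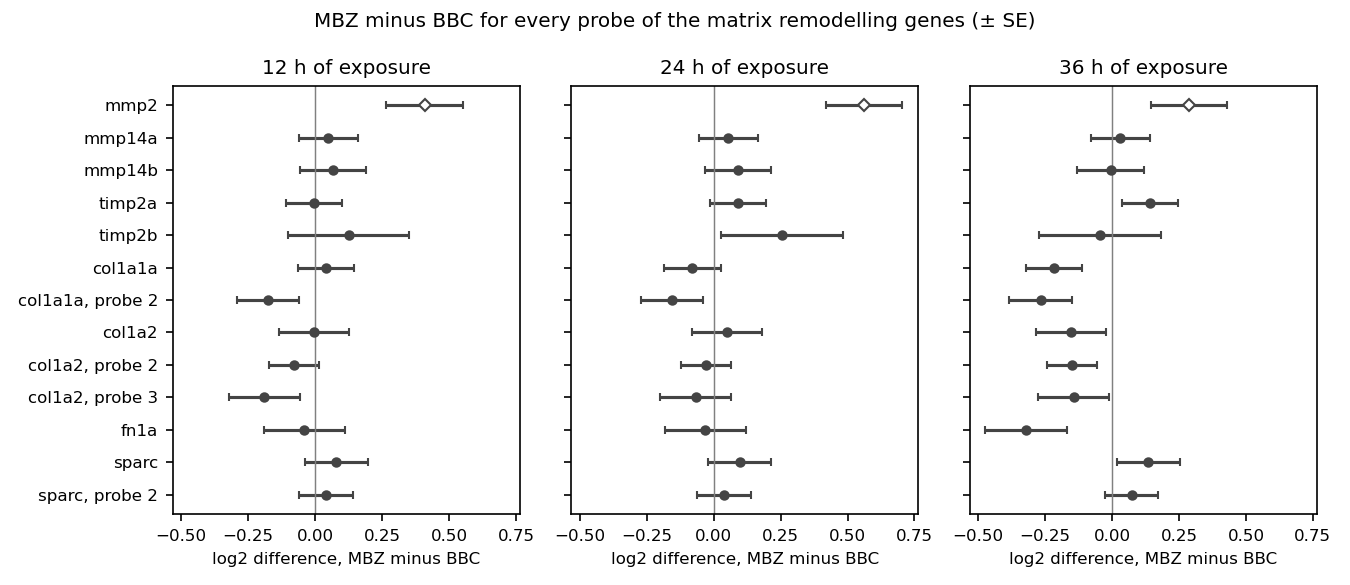
Log2 difference, MBZ minus BBC, for each of the 13 probes at 12, 24 and 36 h (points ± SE, 4 arrays per group). The open diamond is *mmp2*, which was not tested, and the filled points are the 12 probes of the other genes, none of which was called. At 36 h the *col1a1a*, *col1a2* and *fn1a* probes are to the left of 0, with *fn1a* at -0.32.

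The matrix proteins were closest to a call at 36 h. The *fn1a* level was -0.65, 0.00, -0.28 and 0.36 in MBZ eyes and 0.12, 0.24, -0.12 and 0.46 in BBC eyes. MBZ replicates 1 and 3 lay below the whole BBC range. The log2 difference was -0.32 ± 0.15 (SE, adjusted p = 0.366 by limma), with values of -0.51 and -0.14 within the 2 slides and of -0.77, -0.24, -0.17 and -0.10 between samples of the same replicate number. It was called with a block for each such pair (adjusted p = 0.138 by limma). Over the tested probes, the deviations of the 2 samples of a pair correlated at only -0.02 to 0.37 at 36 h. The call also turned on single samples. Without BBC replicate 3 the difference was -0.42 (adjusted p = 0.172), without MBZ replicate 4 it was -0.49 (adjusted p = 0.0592), and without MBZ replicate 1 it was -0.15 (adjusted p = 0.676), all by limma. At 12 and 24 h the *fn1a* difference was -0.04 and -0.03.

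Collagen I is a triple helix of chains that *col1a1a* and *col1a2* encode. At 36 h the *col1a1a* level was 4.28, 4.89, 4.64 and 4.75 in MBZ eyes, against 4.98, 4.89, 4.74 and 4.82 in BBC eyes. MBZ replicate 1 was the lowest of the 8 samples. The difference was -0.22 for this probe and -0.27 for the second *col1a1a* probe (adjusted p = 0.375 and 0.318 by limma). Without MBZ replicate 1 it was -0.10 for the brighter probe. The second probe was lower in MBZ eyes on 6 of 6 slides (between -0.43 and -0.10), and the brighter one on 4 of 6. The *fn1a* probe was also lower on 6 of 6 (between -0.51 and -0.03). The share of all probes with a negative difference on every slide was not counted.

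The *col1a2* level at 36 h was 5.87, 6.02, 5.50 and 5.84 in MBZ eyes and 6.26, 6.22, 5.69 and 5.67 in BBC eyes. In BBC eyes replicates 1 and 2, which shared a slide, were above replicates 3 and 4, which shared the other. The same order held in MBZ eyes. By replicate number, the summed linear level of 7 epidermis markers was 543, 518, 402 and 358 in BBC eyes at 36 h. In MBZ eyes it was 534, 460, 404 and 353. None of these 7 was called at 36 h by limma, and 2 passed an unadjusted p under 0.05. The part of the epidermis in the *col1a2* values was not tested. The 3 *col1a2* probes gave differences of -0.15, -0.15 and -0.14, with a lowest adjusted p of 0.528 (limma). By contrast, *sparc* was 6.05, 6.03, 6.26 and 5.64 in MBZ eyes at 36 h, against 5.90, 5.82, 5.90 and 5.82 in BBC eyes. In 3 MBZ samples it exceeded all BBC samples and in the remaining one it was below them. The difference was 0.14 (adjusted p = 0.679 by limma), and it was positive on 6 of 6 slides over the 3 times, between 0.02 and 0.18. For the second *sparc* probe it was positive on 5 of 6 slides, and by normexp the difference of the brightest probe at 36 h turned to -0.21.

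At 36 h MBZ replicate 1 was the lowest of its group in *mmp2*, *mmp14a*, *mmp14b*, *timp2a*, *timp2b*, *col1a1a* and *fn1a*. In the same sample the summed level of the 8 cartilage markers was 49.0, against 59.7 to 63.8 in the other MBZ samples and 52.7 to 64.4 in BBC eyes (sums on the linear scale, with the upper quartile as 1). The largest part of this sum was the collagen gene *col9a2*, with a median level of 5.16, where *col11a2* was next at 0.45. Both *col9a2* and *hapln1a* are also among the other matrix genes below. The sum of the 10 skeletal muscle markers was 72.6 there, against 112 to 130 in the other MBZ samples and 113 to 179 in BBC eyes. None of the cartilage and none of the skeletal muscle markers was called at 36 h by limma, and none passed an unadjusted p under 0.05. The sum of the 9 markers of periocular mesenchyme and neural crest was 90.5 in that sample, and it ranged between 62.9 and 97.6 in MBZ eyes and between 91.0 and 98.2 in BBC eyes. None of these 9 was called at 36 h by limma, and 1 passed an unadjusted p under 0.05. On the array of MBZ replicate 1 at 36 h, 425 probes were flagged as uneven. The flag was set for 440 and 540 probes on replicate 3 of MBZ and BBC at 36 h, and for at most 56 on every other array. The part of these cell types and of array quality in the values was not tested.

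Markers of other cell types were compared in the same way. Of all probes, 0.321%, 0.321% and 5.62% were called at 12, 24 and 36 h, and 52.3%, 46.1% and 47.1% had a positive difference. At 36 h all 8 macrophage and microglia markers had a positive difference and 4 were called, and their sum ranged between 25.8 and 47.7 in MBZ eyes and between 20.1 and 28.9 in BBC eyes. The largest part of this sum was *apoeb*, with a median level of 4.05, where the other 7 markers had medians of at most 1.63. At 24 h 7 of the 8 macrophage and microglia markers had a positive difference, with a median of 0.24, and 1 was called higher. An unadjusted p under 0.05 was passed by 4 of the 8 at 24 h and by 7 at 36 h. Their sum at 24 h ranged between 24.6 and 27.9 in MBZ eyes and between 19.4 and 26.5 in BBC eyes. At 12 h it ranged between 16.5 and 18.2 in MBZ eyes and between 13.9 and 18.9 in BBC eyes, with none called and 1 gene at an unadjusted p under 0.05. The 10 skeletal muscle markers all had a positive difference at 12 h, with a median of 0.67. None was called and 3 passed an unadjusted p under 0.05. By replicate number their sum at 12 h was 19.0, 45.9, 20.1 and 21.0 in MBZ eyes. In BBC eyes it was 8.6, 9.7, 25.0 and 26.0. The sum was higher in MBZ eyes on the slide of replicates 1 and 2, and lower on that of replicates 3 and 4. At 36 h 1 of the 10 muscle markers had a positive difference, and the median was -0.30. The 8 lens markers all had a negative difference at 36 h, and 3 of them were called. Their sum then ranged between 387 and 544 in MBZ eyes and between 594 and 846 in BBC eyes. At 24 h all 8 had a positive difference, with a median of 0.21 and none called. The lens sum at 24 h ranged between 766 and 1175 in MBZ eyes and between 693 and 1065 in BBC eyes. Of the 15 markers of the neural retina and pigment epithelium, 2 were called lower at 36 h, *rx2* and *pou4f2*, and the sum of the 15 ranged between 365 and 408 in MBZ eyes and between 344 and 444 in BBC eyes. The part of these cell types in the *mmp2* difference was not tested.

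The same genes were then compared across ages in BBC eyes. The step between ages was not the contrast that selected *mmp2*. The BBC values of *mmp2* did enter that selection, so its steps are not independent of it. All 9 measured genes were tested across ages at an adjusted p under 0.05. Between 60 and 72 hpf 6 of the 9 genes were called, 4 higher and 2 lower, where 73.5% of all probes were called. Between 72 and 84 hpf 6 of the 9 were called, 3 in each direction, where 57.2% of all probes were called. These counts are near the background. The samples of the 2 ages did not overlap for 7 of the 9 genes in the first step and 6 in the second. Of all probes, 70.9% and 51.3% did not overlap in these steps. The median over all probes shifted by 0.20 and -0.13 in the 2 steps, by 0.02 and 0.01 after quantile normalization, and by 0.77 and -0.68 by normexp. The values below are to be read against these shifts.

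The mean *mmp2* level in BBC eyes was 2.85 ± 0.28, 3.53 ± 0.10 and 3.31 ± 0.17 at 60, 72 and 84 hpf (SD, n = 4 each). The step of 0.68 to 72 hpf was called (adjusted p = 0.00022 by limma) and that of -0.22 to 84 hpf was not (adjusted p = 0.196). The selection of *mmp2* favours low BBC values, which at 60 hpf would raise the first step. When single arrays were left out, that step ranged between 0.55 and 0.77 and kept its call. In MBZ eyes the mean was 3.26 ± 0.10, 4.09 ± 0.23 and 3.60 ± 0.26 at the same ages, with the highest level again at 72 hpf. By normexp the step of *mmp2* to 72 hpf was -0.22, and 0.34 without replicate 3 of both compounds at 72 hpf. Neither was called (adjusted p = 0.66 and 0.205 by limma).

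Both inhibitor genes were also called higher at 72 hpf. The *timp2a* level in BBC eyes was 2.23, 2.35, 2.43 and 2.51 at 60 hpf, 3.33, 3.27, 3.53 and 3.31 at 72 hpf, and 3.06, 2.94, 3.27 and 3.05 at 84 hpf. No sample at 60 hpf reached those at the later ages. The first step was 0.98 (adjusted p = 4.46e-08 by limma) and the second was -0.28 (adjusted p = 0.0277). By normexp the first step was 0.03 and was not called (adjusted p = 0.949), and without replicate 3 of both compounds at 72 hpf it was 0.56 and called. The second step lost its call by quantile normalization (-0.15), by the authors' values (-0.13), and without BBC replicate 3 at 72 hpf or BBC replicate 1, 2 or 4 at 84 hpf (adjusted p = 0.0972, 0.053, 0.0866 and 0.0553). It was 0.69 by normexp. The mean *timp2b* level was -2.81, -1.94 and -2.15 at the 3 ages, of which the first step of 0.87 was called (adjusted p = 0.00187 by limma) and the second, of -0.21, was not (adjusted p = 0.455). By normexp the second step was -0.99 and was called (adjusted p = 0.0289), and without those arrays it was -0.65 and was not (adjusted p = 0.0738).

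The membrane protease genes took another course. The *mmp14a* level in BBC eyes was 2.51, 2.67, 2.76 and 2.87 at 60 hpf, 2.45, 2.51, 2.52 and 2.61 at 72 hpf, and 3.10, 2.99, 3.27 and 3.15 at 84 hpf. Every sample at 84 hpf lay above all earlier ones. The step to 72 hpf was -0.18 and not called (adjusted p = 0.149), and the step to 84 hpf was 0.60 and called (adjusted p = 9.74e-05 by limma). By normexp the first of these steps was -0.97 and was called (adjusted p = 0.0234). The steps of *mmp14b* were 0.09 and 0.27 and neither was called (adjusted p = 0.525 and 0.0697). The second was called by quantile normalization (0.35), by the authors' values (0.34) and by normexp (0.90). It was also called without BBC replicate 3 at 72 hpf, without BBC replicate 4 at 84 hpf or without MBZ replicate 1 at 84 hpf (adjusted p = 0.0473, 0.0473 and 0.0334), the last of which enters only the spread of the fit.

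Among the matrix proteins *fn1a* fell by 1.01 to 72 hpf (adjusted p = 5.01e-06 by limma) and rose by 0.64 to 84 hpf (adjusted p = 0.00125). By normexp the second step was 0.24 and was not called (adjusted p = 0.352). The 4 samples lay between 0.46 and 0.67 at 60 hpf, between -0.59 and -0.40 at 72 hpf and between -0.12 and 0.46 at 84 hpf. The *fn1a* samples at 72 hpf were below all others.

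For the genes with several probes the direction with age depended on the probe. The brightest *col1a1a* probe averaged 4.77, 5.46 and 4.86 in BBC eyes at 60, 72 and 84 hpf, whereas the second averaged 4.85, 4.43 and 4.62. Their first steps of 0.70 and -0.42 were both called, in opposite directions (adjusted p = 4.85e-06 and 0.00275 by limma). The second step of the brightest probe was -0.61 (adjusted p = 5.28e-05) and that of the other was 0.19 (adjusted p = 0.177). By the authors' values the -0.61 became -0.27 and was not called, while the 0.19 was called by quantile normalization (0.39), by the authors' values (0.40) and by normexp (1.16). With the mean over both probes neither step of *col1a1a* was called (0.14 and -0.21).

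The brightest *sparc* probe in BBC eyes was at 5.50, 5.50, 5.51 and 5.64 at 60 hpf, 4.28, 4.25, 4.55 and 4.65 at 72 hpf, and 5.90, 5.82, 5.90 and 5.82 at 84 hpf. The second was at 2.37, 2.30, 2.66 and 2.70, then at 2.95, 3.0, 2.93 and 2.95, and then at 2.36, 2.50, 2.80 and 2.49. The first probe was lowest at 72 hpf and the second highest. The steps of the 2 *sparc* probes were opposed, at -1.11 and 0.45 to 72 hpf and at 1.43 and -0.42 to 84 hpf, and all 4 values were called. The 3 *col1a2* probes gave 0.27, 0.35 and 0.10 to 72 hpf, of which the 0.35 was called, and the steps to 84 hpf were -0.68, -0.46 and 0.22, of which the first 2 were called. The 0.27 of the brightest probe was called with only the arrays compared (adjusted p = 0.00606), the mean over the probes was called at 0.24 (adjusted p = 0.0229), and by normexp the 0.27 turned to -0.64 without a call. The -0.68 became -0.25 by quantile normalization and -0.12 by the authors' values, and was no longer called. By normexp the steps of the brightest *col1a1a* probe were -0.20 and 0.40, those of the second *sparc* probe -0.36 and 0.46, and that of the brightest *col1a2* probe to 84 hpf was 0.18, each opposite in sign to the value above. At 36 h the probes of each of these genes had the same sign in MBZ minus BBC. The signs differed for *col1a1a* at 12 h (0.04 and -0.18) and for *col1a2* at 24 h (0.05, -0.03 and -0.07).

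**Figure D3:**
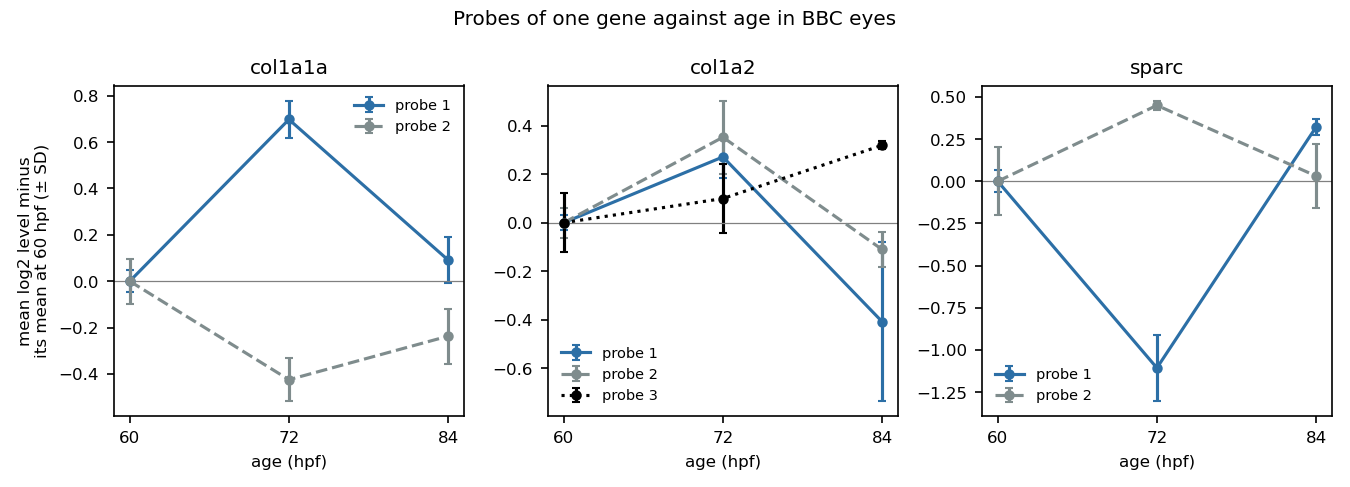
Mean log2 level in BBC eyes minus the mean at 60 hpf (± SD, 4 arrays) against age in hpf for each probe of *col1a1a*, *col1a2* and *sparc*. Probe 1 is the brightest, and at 72 hpf the 2 *sparc* probes stand at -1.11 and 0.45.

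Beyond the condition means, *mmp2* also varied from sample to sample. After the mean of each condition was taken off, the Pearson correlation with *mmp2* over the 24 arrays was 0.80 for *mmp14a*, 0.75 for *mmp14b*, 0.65 for *timp2b* and 0.57 for *timp2a*. It was 0.43 for *col1a1a*, 0.29 for *fn1a*, 0.22 for *sparc* and -0.26 for *col1a2*. The Spearman correlations of *mmp14a*, *mmp14b*, *timp2b* and *timp2a* were 0.80, 0.74, 0.70 and 0.61. Among 9209 named genes measured on all arrays, *mmp14a* came at place 17, *mmp14b* at place 65, *timp2b* at place 255 and *timp2a* at place 488, and the median over all genes was -0.02. BBC replicate 1 at 12 h and MBZ replicate 1 at 36 h had the *mmp2* deviations from the condition mean that lay farthest from the median deviation. Without these 2 samples the correlations of the 4 genes were 0.70, 0.64, 0.49 and 0.47. In the 12 MBZ arrays they were 0.72, 0.88, 0.49 and 0.38, and in the 12 BBC arrays 0.96, 0.57, 0.78 and 0.82. For *col1a1a* and *fn1a* they were 0.70 and 0.61 in the MBZ arrays, above both inhibitor genes, and -0.14 and -0.24 in the BBC arrays. Over both compounds, the correlations of *col1a1a* and *fn1a* without the same 2 samples were 0.23 and -0.01. They are descriptions, since the arrays share slides, scan days and a common scaling.

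**Figure D4:**
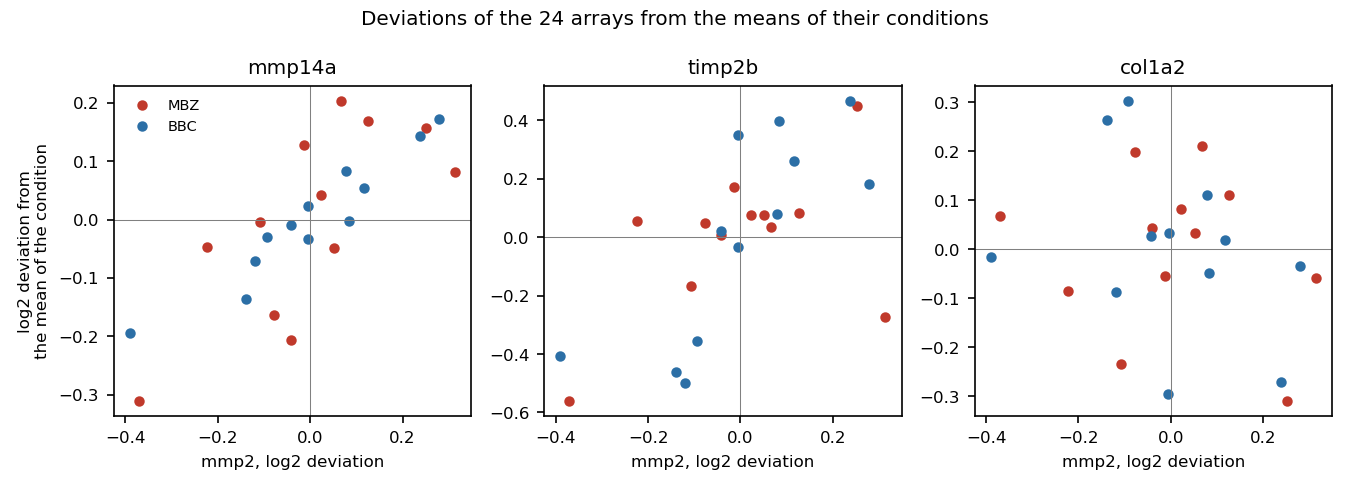
Deviation of each of the 24 arrays from the mean of its condition for *mmp14a*, *timp2b* and *col1a2* (vertical axes, log2) against that of *mmp2* (horizontal axes, log2), with MBZ in red and BBC in blue. The points rise for *mmp14a* (0.80) and *timp2b* (0.65), and for *col1a2* they do not (-0.26).

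Over all 24 arrays, with condition means left in, the 5 genes whose levels were most like that of *mmp2* were *arpc1b* (Pearson correlation 0.92), *c1qtnf1* (0.92), *mafba* (0.92), *plek* (0.91) and *rrad* (0.90), where the median over all genes was 0.06. Their Spearman correlations were 0.90, 0.89, 0.95, 0.87 and 0.91. The first is a subunit gene of the Arp2/3 complex that branches actin, *c1qtnf1* encodes a secreted protein related to C1q and TNF, *mafba* a transcription factor of the Maf family, *plek* pleckstrin, and *rrad* a small GTP-binding protein. All 5 had a higher mean in MBZ eyes than in BBC eyes at each time, which the choice by likeness favours, so no test is given. The *plek* mean was -3.89, -3.09 and -3.32 in MBZ eyes at 12, 24 and 36 h, against -4.20, -3.73 and -3.74 in BBC eyes. The *rrad* mean was -1.75, 0.05 and -0.32 in MBZ eyes, against -2.19, -0.72 and -1.32 in BBC eyes. Of the other members, *timp2b* (0.82, place 82) and *timp2a* (0.79, place 138) were the nearest to *mmp2* in this measure, and *fn1a* (-0.66) was the farthest.

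Other genes of the matrix were taken from 10 lists with 243 genes, of which 93 had a probe and 88 were tested. None of the 88 was called at 12 or 24 h by limma, and 5 and 1 of them passed an unadjusted p under 0.05. At 36 h 5 were called, 2 higher and 3 lower, a share of 5.68% beside the 5.62% of all probes. The median log2 difference over the 88 genes was 0.01, -0.00 and -0.07 at 12, 24 and 36 h. With a block for each pair of replicates of the same number, 1 gene was called at 24 h, *hapln1a*, which encodes a link protein of cartilage matrix (-0.30, adjusted p = 0.191 by limma).

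Of the 5 genes called at 36 h, 3 encode enzymes that modify or crosslink collagen, from a list of 18 tested genes. Of these 3, 2 were lower and 1 was higher. The 5 calls are near the share over all probes, so the 3 are not read as a group. The lysyl hydroxylase gene *plod2* averaged -5.25 in MBZ eyes and -4.63 in BBC eyes (difference -0.62 ± 0.19, SE, n = 4 each). For the prolyl hydroxylase gene *p4ha1a* the means were -2.65 in MBZ eyes and -2.09 in BBC eyes (-0.56 ± 0.18). The lysyl oxidase family gene *loxl5b* was at -4.15 in MBZ eyes, against -4.71 in BBC eyes (0.56 ± 0.16). The thrombospondin gene *thbs2b* averaged -1.93 in MBZ eyes and -1.41 in BBC eyes, and the biglycan gene *bgnb* 0.13 in MBZ eyes and -0.35 in BBC eyes. The adjusted p by limma was 0.129, 0.147, 0.0917, 0.191 and 0.159 for *plod2*, *p4ha1a*, *loxl5b*, *thbs2b* and *bgnb*. Each of the 5 lost its call when some single arrays were left out, namely 4, 6, 3, 18 and 6 of the 24 in turn. The *plod2* difference was -0.40 without MBZ replicate 1. The levels of *plod2* and *loxl5b* were low. Under the alternatives other than leaving out single arrays, their differences ranged between -0.62 and -0.19 (*plod2*) and between 0.28 and 0.63 (*loxl5b*). The count of called genes was 1, 2, 10 and 1 without BBC replicate 1, 2, 3 and 4 at 36 h, and it was 1, 0 and 13 without MBZ replicate 1, 3 and 4. The count over all probes was 959, 780, 3229 and 968 in the first 4 of these and 1810, 636 and 3633 in the other 3, where 1770 were called with all arrays. The count of matrix genes was 0, and that of all probes 141, when the 8 arrays of that time were fitted alone.

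By list, the 3 tested metalloproteinases other than the members (*mmp9*, *mmp23bb* and *mmp30*) had log2 differences between 0.15 and 0.30 at 36 h. None was called by limma, and none passed an unadjusted p under 0.05. At 12 h these 3 genes lay between -0.23 and 0.09, and at 24 h between -0.26 and 0.28. The difference at 36 h was negative in 4 of 4 other fibrillar collagens, with a median of -0.25, and in 6 of 6 laminins and basement membrane genes, with a median of -0.24. Of 9 matrix receptors 1 had a positive difference, and the median was -0.22. No gene of these 3 lists was called by limma, and 0, 1 and 2 of them passed an unadjusted p under 0.05. Of all probes, 47.1% had a positive difference at 36 h. The medians of the same 3 lists were 0.06, -0.13 and -0.10 at 12 h, and at 24 h they were -0.10, -0.02 and -0.04. In the remaining lists 3 of 3 protease inhibitor and plasminogen genes had a positive difference at 36 h. So did 6 of 11 proteoglycans, 2 of 6 ADAM and ADAMTS genes and 2 of 5 other collagens. The count was 8 of 23 for glycoproteins and 8 of 18 for genes of collagen processing.

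**Figure D5:**
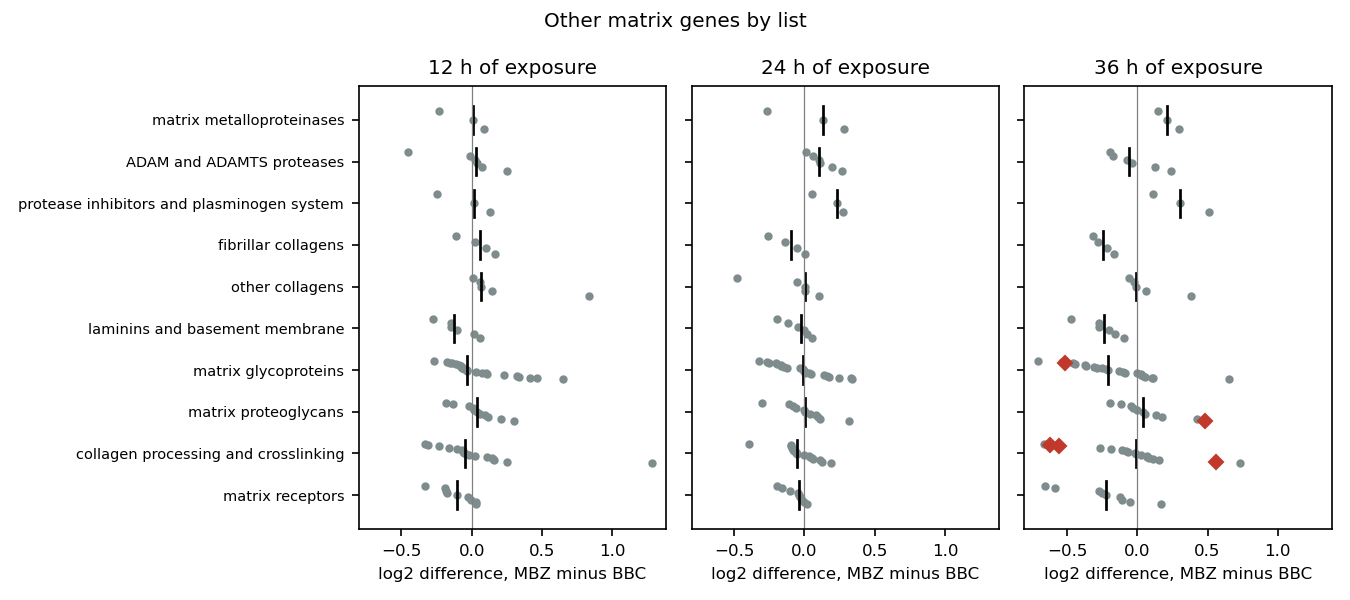
Log2 difference, MBZ minus BBC, of the 88 other matrix genes in 10 lists at 12, 24 and 36 h. Points are genes, red diamonds are the 5 called genes, and black lines are the medians of the lists, which at 36 h are -0.25 for fibrillar collagens and -0.24 for laminins.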

How the data were processed

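Pooled eyes in MBZ or BBC were hybridized to 24 Agilent arrays of 1 colour, and compound, exposure time and replicate number were taken from the labels. The authors extracted the arrays with Feature Extraction (version 8.0 per the labels, 10.1.1.1 per the file headers), and the deposited scanner output holds spot intensities on a linear scale and spot flags. The deposited log2 values, which the authors normalized with Agi4x44PreProcess, served as an alternative. Spots of a probe were averaged, control and uneven spots were left out, and no spot was saturated. A probe was tested (31506 of 43603) where the flags for a positive, significant signal and for a signal well above background were set on all 4 arrays of any condition. Gene names came through the accessions of the probes from a RefSeq table of GRCz12tu, which named 15163 probes. A gene is represented by its brightest probe. Precision is limited by how many arrays there are, and the median standard error of the differences was 0.14 (log2).

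All arrays entered 1 fit of 6 conditions (limma 3.58.1, R 4.3.3, 18 residual degrees of freedom), with p-values adjusted by Benjamini-Hochberg over all tested probes. The fit was tested on simulated data with independent errors, which cannot show how it behaves where samples of a slide or replicate number vary together. The rank product of the study was not run, because it resamples over genes. The members, lists and named genes were chosen with earlier results of these data known. Named were all members with every probe, up to 6 called genes of the lists with the largest differences at each time, and the 5 genes most like *mmp2*. Whether replicate numbers paired the samples was checked by correlating deviations from the condition means over probes. Between MBZ and BBC samples of the same number the correlation was 0.16 to 0.44 at 24 h, 0.03 to 0.13 at 12 h and -0.02 to 0.37 at 36 h. At 24 h each MBZ sample correlated best with the BBC sample of its own number, and at 12 and 36 h some did not. This check cannot separate pairing from slide and position, since samples of a number shared a slide at consecutive positions. The main fit held no term for pairs at any time, and pairs entered only in an alternative. The alternatives were a stricter threshold, quantile normalization, the authors' values, normexp on the median signal (offset 50, the mean signal not being used here), the 4 flags of the study on all arrays, every probe without a filter, blocks for replicate number or slide, the mean over the probes of a gene, only the arrays compared, and leaving out each array. Normexp without replicate 3 of both compounds at 24 h was chosen after seeing the data.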

Additional observations from a re-analysis of the deposited data

Results flagged for a closer look

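Among the 78 groups of 4 arrays (13 probes in 6 conditions), 3 held a sample that stood apart from the other 3 by Dixon's test, and chance gives about 1 in 20. The brightest *col1a2* probe was at 6.89 in MBZ replicate 2 at 24 h, where the others lay between 6.61 and 6.64. The least bright *col1a2* probe was at 2.41 in MBZ replicate 1 at 36 h, where the others lay between 3.01 and 3.09. The brightest *sparc* probe was at 5.64 in BBC replicate 4 at 12 h, where the others lay between 5.50 and 5.51.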

How the results depend on the processing

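The count of 0 called members at 12 and 24 h, and in the effect at 36 h against that at 12 h, held under every alternative run. At 36 h it became 1 (*fn1a*) with a replicate block within each exposure time, and leaving out single arrays gave 0 to 1. The 0 other matrix genes at 24 h became 1 with that replicate block. The 5 other matrix genes at 36 h became 12 with it (3704 of 31506 probes in all), 9 with the slide as a block (2684 probes), 2 with no filter, and 0 with the stricter threshold, with only the arrays compared and with normexp, also without replicate 3 of both compounds at 24 h. Leaving out single arrays gave 0 to 13. A replicate block shared by all times gave 6, and no replicate block moved another count of members or other matrix genes by over 1.5 times. The counts over all probes at 12, 24 and 36 h became 159, 189 and 3704 with the block within times, and that of the effect at 36 h against 12 h became 596, or 259 with the shared block. Counts of cell type markers were not run under the alternatives. The 6 members called to 84 hpf became 3 with normexp without replicate 3 at 24 h, and were 4 to 6 otherwise (5 to 7 without single arrays). Those called to 72 hpf were 4 to 7.

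By normexp the step to 72 hpf reversed for *mmp2* (-0.22), *col1a1a* (-0.20) and the second *sparc* probe (-0.36), and the step to 84 hpf for *timp2a* (0.69, and 0.16 without replicate 3 at 24 h), *col1a1a* (0.40), *col1a2* (0.18) and the second *sparc* probe (0.46). On the arrays of replicate 3 at 24 h the *mmp2* level by normexp was 2.2 in MBZ and 0.81 in BBC, against 4.08 in MBZ and 3.61 in BBC by the processed signal, and the cause was not tested. The *mmp2* difference at 24 h was 0.91 by normexp and 0.75 without those arrays. Blocks, filters and a fit of only the arrays compared leave the *mmp2* difference as it is by construction. All 13 probes were well above background on every array, yet of 44 values of the steps with age by normexp, with and without replicate 3 at 24 h, 8 reversed, 9 lost and 7 gained a call.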
